A study of Mus musculus with 6 samples.

Results

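Metallothioneins are small cysteine-rich proteins that bind zinc, copper and cadmium, and the genes described here are Mt1, Mt2, Mt3 and Mt4 with Mtf1, the gene of the transcription factor that switches Mt1 and Mt2 on. The 5 genes were chosen by name with earlier results of these data known, as were the gene lists and markers used below. Each of the 5 was read through the transcript cluster that the platform annotation gives to that gene alone. All 5 were found among 18972 genes, each with 1 cluster, and none shared its values with another gene. The cells were NIT-1, a mouse pancreatic beta cell line derived from a tumour of transgenic mice that express a viral T antigen in beta cells. After 24 h in plates, 3 cultures stayed in medium for a further 24 h with no cadmium (control) and 3 received 4 µmol/L cadmium sulphate, CdSO4, for 24 h (cadmium). Both groups were grown in the same serum-containing medium with antibiotics. Biotin-labelled total RNA from each culture was read on 1 array, and the 3 arrays of a group are labelled biological replicates. Whether the cultures of a group were grown from different passages is not stated in the labels, and a p-value here therefore reflects only the variation among these 6 arrays, which may be technical.

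Zinc released inside the cell, for example when cadmium displaces it from proteins, binds the zinc fingers of the Mtf1 protein, which then enters the nucleus and binds short metal response elements in the promoters of its target genes. Mt1 and Mt2 are the widely expressed metallothioneins and respond to zinc, cadmium, glucocorticoids and oxidants. Mt3 is best known from the brain and Mt4 from stratified squamous epithelia, and neither is a classical metal-inducible gene. The Mtf1 protein is controlled mainly by its binding of zinc, its phosphorylation and its entry into the nucleus.

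The promoter windows are shown because the metal response element is the sequence through which Mtf1 acts. Each window holds the 250 bases before the RefSeq transcript start and 30 from the start onward, in build GRCm38.p6 on the plus strand, and all 5 genes had a window in the RefSeq table. The core of the element was searched on both strands as TGCACNC or TGCGCNC, where N is any base. Capitals mark each match, and a match on the minus strand appears as its reverse complement. The Mt1 window is chr8:94178839-94179118, that of Mt2 chr8:94172368-94172647, that of Mt3 chr8:94152357-94152636 and that of Mt4 chr8:94136954-94137233.
Mt1: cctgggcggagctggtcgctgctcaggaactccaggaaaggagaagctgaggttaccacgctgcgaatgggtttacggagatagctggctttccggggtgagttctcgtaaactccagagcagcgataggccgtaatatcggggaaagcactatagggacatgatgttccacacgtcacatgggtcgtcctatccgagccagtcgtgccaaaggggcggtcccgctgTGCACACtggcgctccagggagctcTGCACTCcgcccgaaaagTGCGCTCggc
Mt2: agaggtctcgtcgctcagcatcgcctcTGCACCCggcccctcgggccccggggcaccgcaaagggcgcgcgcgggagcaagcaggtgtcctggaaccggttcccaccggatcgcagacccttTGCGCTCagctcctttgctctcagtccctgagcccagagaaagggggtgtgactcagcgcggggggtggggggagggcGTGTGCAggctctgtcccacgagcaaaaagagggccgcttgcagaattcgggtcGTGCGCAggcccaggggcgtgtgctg
Mt3: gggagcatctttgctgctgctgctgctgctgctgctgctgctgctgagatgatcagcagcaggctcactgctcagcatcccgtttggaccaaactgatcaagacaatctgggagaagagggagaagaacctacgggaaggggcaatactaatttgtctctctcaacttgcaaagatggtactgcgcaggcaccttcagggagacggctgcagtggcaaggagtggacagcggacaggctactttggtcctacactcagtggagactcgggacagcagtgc
Mt4: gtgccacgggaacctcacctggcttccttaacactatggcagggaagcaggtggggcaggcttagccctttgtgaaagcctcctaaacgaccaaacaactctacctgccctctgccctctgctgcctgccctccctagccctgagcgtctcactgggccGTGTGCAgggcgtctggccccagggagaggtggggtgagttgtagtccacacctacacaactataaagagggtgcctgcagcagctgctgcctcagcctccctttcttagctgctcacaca

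The Mt2 window held 4 matches, the Mt1 window 3 and the Mt4 window 1, whereas the Mt3 and Mtf1 windows held 0. In Mt1 the matches lay together, with first bases at -23, 2 and 20 counted from the base at the annotated start as 0, all on the plus strand. In Mt2 they were spread out, with first bases at -223, -128, -50 and 4, the first 2 on the plus strand and the last 2 on the minus strand. The match in Mt4 began at -91 on the minus strand. Of 32851 windows of the same length, 24.1% held at least 1 match, 1.73% at least 3 and 0.405% at least 4. Windows with a match were richer in G and C, at a median of 60.4% against 52.5% over all windows, and the Mt2 window was at 68.6% and that of Mt1 at 59.6%. The core of the antioxidant response element, TGACNNNGC, was found once in the Mt2 window, at -79, and in 11.5% of all windows. The 2 motifs did not overlap in Mt2. A match describes letters in a window and not a bound site. The windows follow the annotated starts, which were not checked against other possible starts, so elements outside the windows were not counted. In Mt1 the last match ended at 26, close to the end of the window. The count and positions for Mt1 therefore hold only for this annotated start, and the Mt1 and Mt2 windows may not cover like parts of the 2 promoters.

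With cadmium Mt1, Mt2, Mt3 and Mt4 rose, and Mtf1 did not pass the test. Mt2 had by far the largest change in signal of the 5, 2.15 ± 0.13 on the log2 scale (SE), which is a 4.45-fold higher signal. Mt4 and Mt1 followed at 0.92 ± 0.17 and 0.87 ± 0.10, Mt3 was higher by 0.21 ± 0.05, and Mtf1 differed by 0.06 ± 0.05. This order is one of signals, since Mt1 in control and Mt3, Mt4 and Mtf1 in both groups lay below the background bound described below. Values are log2 signals as deposited, changes are cadmium minus control, and a gene was called at a limma adjusted p under 0.05 with Benjamini-Hochberg adjustment over all 18972 genes. The 4 called members of 5 stand beside 12.2% of all genes called in either direction and 6.47% called higher. With each array centred on its median 3 of the 5 were called, beside 12.3% of all genes, and at an adjusted p under 0.01 only Mt1 and Mt2, beside 4.58%. In RNA from whole cultures, more RNA per cell and a different share of cells that express a gene cannot be told apart. Of the 4 calls, those of Mt1 and Mt2 stayed under the threshold in every alternative run, and those of Mt3 and Mt4 did not.

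**Figure D1:**
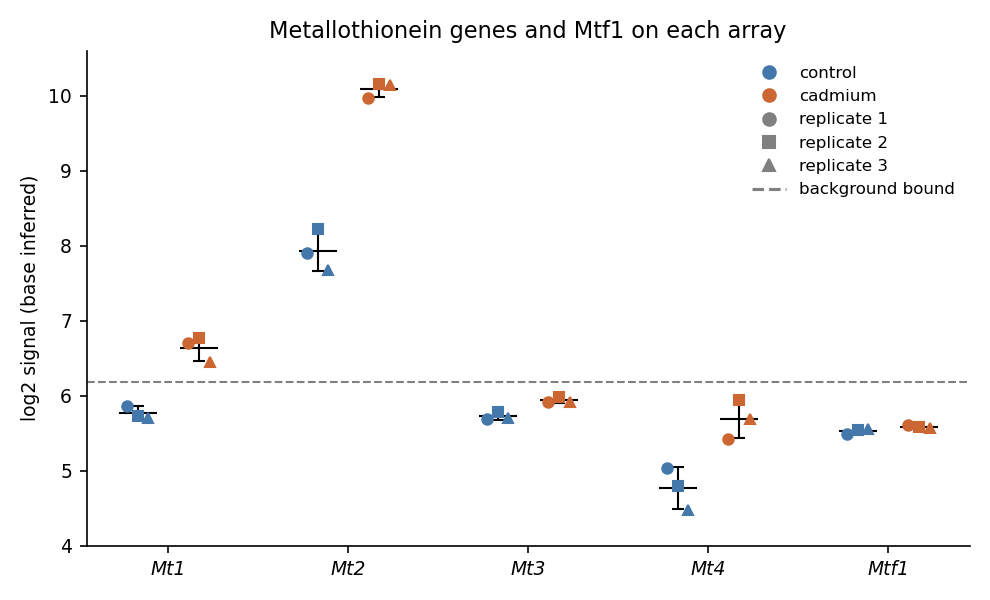
Log2 signal of each gene on each of the 6 arrays, with control arrays in blue and cadmium arrays in orange. Marker shapes give the replicate number, black bars the group mean ± SD (n = 3), and the dashed line the background bound of 6.18. Mt2 lies above the line on all arrays, Mt1 crosses it with cadmium, and Mt3, Mt4 and Mtf1 stay below it.

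The level of a gene was read against 5222 negative control probes of the array, and the background bound of 6.18 is the mean over arrays of their 95th percentile. The bound is approximate, since nothing in the labels says how many probes lie behind a negative control value or a gene's value. A fold is given where both group means exceeded it, and a lower limit where 1 did, with the dimmer arrays set to at least their own percentile. Levels of different genes come from different probes and were not set against each other.

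Mt2 was the only one of the 5 above the bound in both groups. Its log2 signal was 7.90, 8.23 and 7.68 in control replicates 1, 2 and 3, and 9.97, 10.16 and 10.14 in cadmium replicates 1, 2 and 3. The groups were far apart, with the lowest cadmium array 1.74 above the highest control array, and the control arrays were the more spread out, with control replicate 2 highest. The means were 7.94 ± 0.28 and 10.09 ± 0.11 (SD, n = 3), and the change of 2.15 had a 95% interval of 1.84 to 2.47 (limma adjusted p = 0.0011). Among all genes this was the fifth largest increase, with 99.97% of genes below it. On control arrays the Mt2 signal already exceeded 98.7% of negative control probes on average, and 99.6% on cadmium arrays.

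Mt1, the close paralogue of Mt2, moved from below the bound to above it. Its log2 signal was 5.87, 5.73 and 5.70 in control replicates 1, 2 and 3, and 6.70, 6.77 and 6.44 in the cadmium replicates in the same order. The groups did not overlap, and cadmium replicate 3 was the lowest of its group. The means were 5.77 ± 0.09 and 6.64 ± 0.17 (SD, n = 3), a change of 0.87 with a 95% interval of 0.65 to 1.10 (limma adjusted p = 0.0021), and the signal with cadmium was at least 1.37-fold higher. The 3 control arrays lay below their own 95th percentile of negative controls and the 3 cadmium arrays above it. The increase exceeded that of 98.95% of all genes.

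The signals of the 2 classical inducible genes were also compared within each array. The difference of Mt2 minus Mt1 on an array ranged from 1.98 to 2.50 in control and from 3.27 to 3.70 in cadmium arrays, so the measured change of Mt2 was larger by 1.28. The groups did not overlap in this difference (exact two-sided permutation p = 0.1, the smallest that 3 against 3 arrays allows, and 0.111 adjusted over the 10 pairs of the 5 genes). Mt1 lay below the bound in control arrays, where its signal gives only an upper limit, so this difference is one of signals and does not show that the 2 genes changed by different amounts. Probe sequences were not analysed here, so cross-hybridisation between the paralogues was not tested.

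Mt4, the metallothionein of squamous epithelium, gave signals below the bound on all 6 arrays. Its log2 signal was 5.04, 4.79 and 4.47 in control replicates 1, 2 and 3, and 5.43, 5.94 and 5.70 in cadmium replicates 1, 2 and 3. Both groups were spread widely, control replicate 1 came within 0.39 of cadmium replicate 1, and the groups did not overlap. The means were 4.77 ± 0.28 and 5.69 ± 0.26 (SD, n = 3), a change of 0.92 with a 95% interval of 0.52 to 1.32 (limma adjusted p = 0.0156). Leaving out control replicate 2 ended the call (limma adjusted p = 0.0571), as did leaving out replicate 2 or 3 of the cadmium group (0.0552 and 0.0607). On average the Mt4 signal exceeded 84.9% of negative control probes on control arrays and 92.3% on cadmium arrays, and no fold is given. The changes of Mt4 and Mt1 differed by 0.05, with arrays that overlapped between groups (exact two-sided permutation p = 0.8), which does not show that they changed alike.

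Mt3, the metallothionein best known from the brain, showed a small difference with little spread. Its log2 signal was 5.69, 5.78 and 5.71 in control replicates 1, 2 and 3, and 5.92, 5.99 and 5.92 in the cadmium replicates, with replicate 2 the highest of each group. The groups did not overlap, by a gap of 0.13. The means were 5.73 ± 0.05 and 5.94 ± 0.04 (SD, n = 3), and the change of 0.21 had a 95% interval of 0.09 to 0.34 (limma adjusted p = 0.0427). The call was lost without any 1 of the 6 arrays, at limma adjusted p of 0.0613 to 0.134, and with each array centred on its median, at 0.0805. Both means lay below the bound, and 12.5% of all genes had an increase at least as large.

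Mtf1, the activator itself, differed little between groups. Its log2 signal was 5.49, 5.54 and 5.56 in control replicates 1, 2 and 3, and 5.61, 5.58 and 5.57 in the cadmium replicates. Each cadmium array lay above each control array, but by a gap of only 0.01. The means were 5.53 ± 0.04 and 5.59 ± 0.02 (SD, n = 3), and the change of 0.06 had a 95% interval of -0.05 to 0.17 (limma adjusted p = 0.455). With each array centred the difference was 0.02. The interval leaves out a change of the size seen in Mt1, Mt2 or Mt4, though Mtf1 too lay below the bound, where a change in signal is less closely measured. All 5 genes had groups that did not overlap in the higher direction, which 22.9% of all genes showed.

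**Figure D2:**
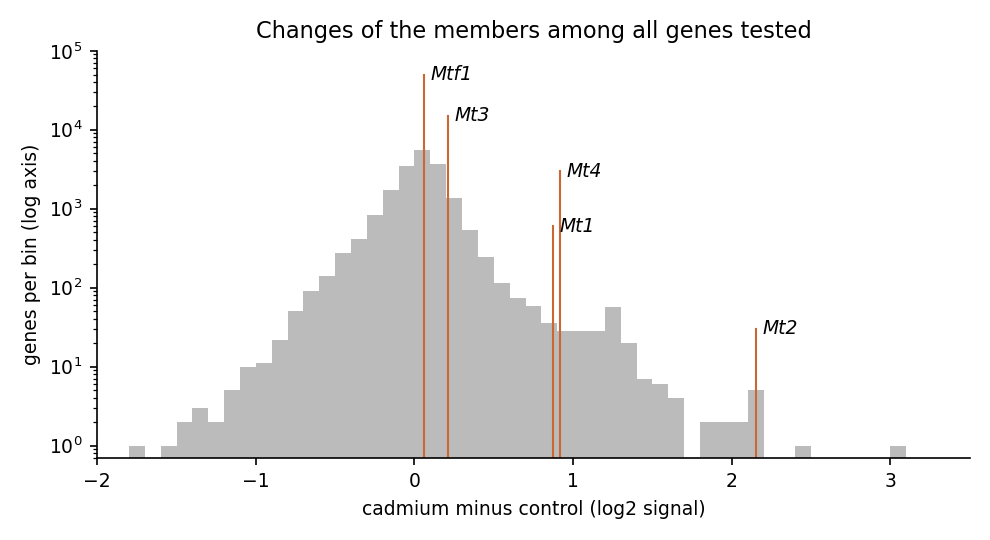
Histogram of the change of all 18972 genes (cadmium minus control, log2 signal, bins of 0.1, counts on a log axis), with the 5 genes marked by lines whose heights only separate the names. Mt2 at 2.15 lies at the far right, Mt1 and Mt4 at 0.87 and 0.92 in the upper tail, and Mt3 and Mtf1 within the bulk.

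Array-wide signals also differed between groups. The median of all transcript clusters was 3.34 to 3.35 on control arrays and 3.39 to 3.40 on cadmium arrays, and the median change over all genes was 0.04. Positive control probes had a median of 5.94 to 6.10 on control and 5.87 to 5.93 on cadmium arrays, so these moved the other way. Results with arrays centred or quantile normalized are given with the other processing settings, and the cause of these array-wide differences was not tested. Relative to the median change the differences were 2.11 for Mt2, 0.87 for Mt4, 0.83 for Mt1, 0.17 for Mt3 and 0.02 for Mtf1. Of 12 beta cell markers 6 were measured under a single name, and all 6 lay below the bound, with Ins2, an insulin gene, at 5.27 ± 0.10 and 5.29 ± 0.04 and Pdx1, a beta cell transcription factor, at 4.25 ± 0.07 and 4.28 ± 0.09 (SD, n = 3). The summed signal of the 6, as log2, was 6.76 to 6.87 in control and 6.88 to 6.91 in cadmium arrays, and 0 of them passed. The measured markers therefore do not bear out the beta cell label. A signal below the bound does not show that a gene was silent, and whether the cells or the bound account for these values was not tested. Of the markers of other islet cells, exocrine pancreas, immune and endothelial cells 2, 3, 2 and 2 were measured, all below the bound and 0 called. Of 5 stromal markers 1 was measured, the collagen gene Col3a1, at 8.94 to 9.20 in control and 7.87 to 8.21 in cadmium arrays, and it fell.

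No control array was the highest for all 5 genes. Within the control group replicate 2 was highest for Mt2 and Mt3, replicate 1 for Mt1 and Mt4, and replicate 3 for Mtf1. Within the cadmium group replicate 2 was highest for the 4 metallothioneins and replicate 1 for Mtf1. Cadmium replicate 1 was lowest for Mt2, Mt3 and Mt4, and replicate 3 for Mt1.

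**Figure D3:**
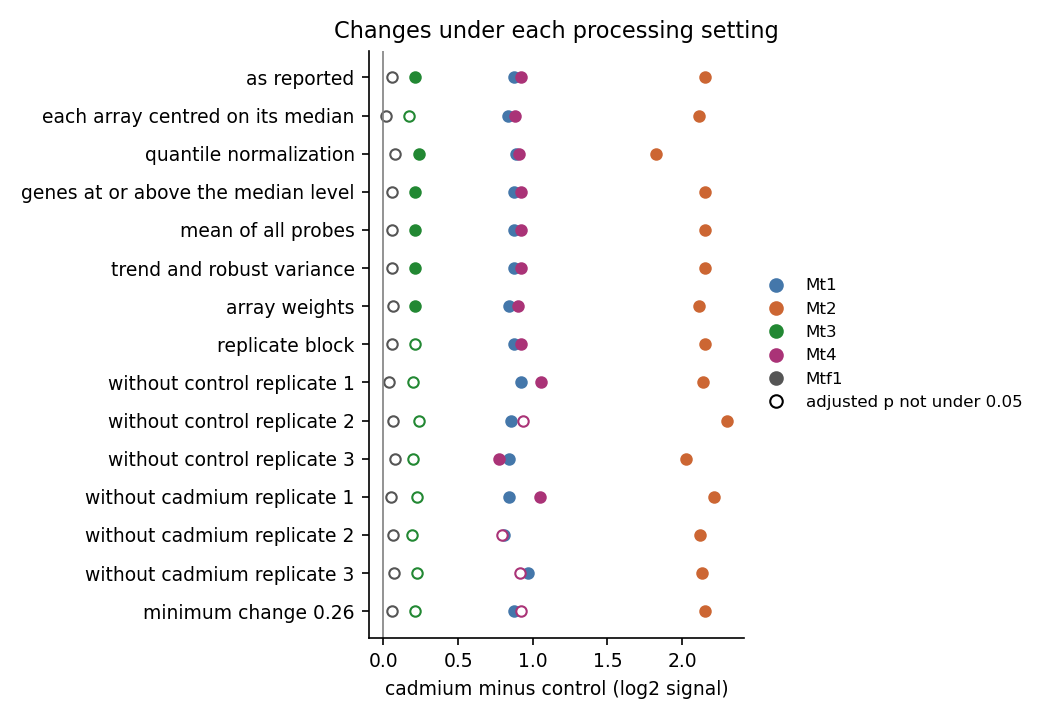
Change of each gene (cadmium minus control, log2 signal, x axis) under each processing setting (y axis), where filled points have a limma adjusted p under 0.05 and open points do not. Mt2 and Mt1 are filled in every row, Mt3 is open without any 1 array, and Mtf1 is open throughout.

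The 4 metallothionein genes lie side by side on mouse chromosome 8 in the order Mt4, Mt3, Mt2, Mt1 (RefSeq, GRCm38.p6), with 0 other measured protein-coding genes between them. The 6 measured protein-coding genes on either side were added after the values of the 4 were known. Of these 12, 0 rose and 1 fell, beside 6.47% called higher and 5.72% called lower over all genes. Counts this small among 12 genes are near those shares and do not set the neighbours apart from other genes. Rspry1 fell from 5.92 ± 0.08 to 5.31 ± 0.05 (SD, n = 3, limma adjusted p = 0.0018), and the median change of the 12 was 0.02. No neighbour had both group means above the bound. Bbs2, a gene of the ciliary BBSome next to Mt4, had a change of -0.05 and Nup93, a nuclear pore gene next to Mt1, one of -0.19, and neither passed. The largest increase among the neighbours was 0.40 in Ogfod1, which did not pass either (limma adjusted p = 0.0886).

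**Figure D4:**
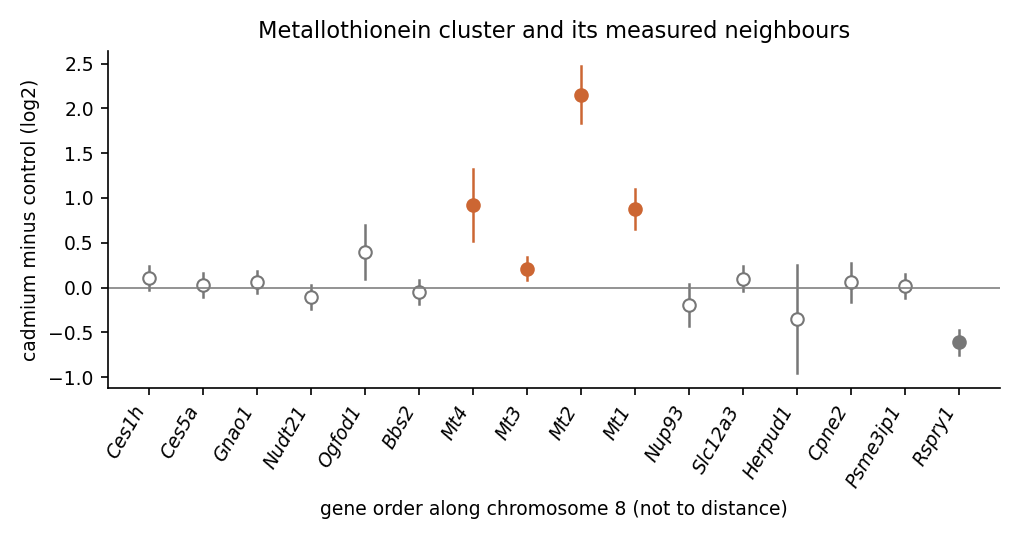
Change with 95% interval (log2 signal, y axis) of the 4 metallothionein genes in orange and the 6 measured protein-coding genes on either side in grey, in gene order along chromosome 8, with filled points for called genes. Among the genes shown Mt4, Mt3, Mt2 and Mt1 were called higher, and Rspry1 at -0.61 was called lower.

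Among other genes reported to respond to Mtf1, 4 of 8 measured rose and 1 fell, with a median change of 0.32 against 0.04 over all genes, of which 6.47% were called higher and 5.72% lower. The zinc exporter gene Slc30a1 of the plasma membrane rose from 5.02 ± 0.04 to 5.92 ± 0.12 (SD, n = 3, limma adjusted p = 0.0015), below the bound in both groups. Gclc, the catalytic subunit of glutamate-cysteine ligase, rose 1.99-fold from 6.85 ± 0.02 to 7.84 ± 0.20, and Csrp1, a LIM domain protein, rose 1.73-fold from 6.62 ± 0.08 to 7.40 ± 0.13. Selenow, a selenoprotein, rose from 5.56 ± 0.06 to 5.95 ± 0.11 (limma adjusted p = 0.0146), a call that ended when control replicate 1 (0.0576) or replicate 2 or 3 of the cadmium group (0.0539 and 0.0598) was left out. The gene that fell was Slc39a10, a zinc importer known as a target that Mtf1 represses, from 5.51 ± 0.21 to 4.39 ± 0.02. Of the 8 only Gclc and Csrp1 had a group mean above the bound, so Selenow and Slc39a10 lay below it in both groups. Hamp, the iron hormone hepcidin, Slc40a1, the iron exporter, and Cebpa, a transcription factor, did not pass, with changes of 0.16, 0.12 and 0.25. The Mtf1 core motif occurred once in the promoter window of Slc30a1, 2 times in that of Selenow and 2 and 0 times in the windows of Csrp1. Both windows of Slc39a10 held 0, as did those of Hamp and Cebpa, and counts for Gclc and Slc40a1 are not given here. Of all windows 24.1% held at least 1 match and 6.37% at least 2. Among zinc transporters that did not pass, the windows of Slc30a4 and Slc30a10 held 3 each and that of Slc39a12 held 0. Called genes and other genes were not compared over all measured genes, so nothing is concluded from these counts.

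Of the proteins known to act at metallothionein promoters beside Mtf1, 3 of 8 were measured and 0 passed, where 12.2% of all genes did. Usf2 and Usf1, which bind E-boxes, had changes of 0.16 and -0.03. Nfe2l2, the gene of the antioxidant factor Nrf2, was at 6.68 ± 0.50 and 6.73 ± 0.36 (SD, n = 3), with a spread within groups far larger than the difference.

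For the counts that follow, 6.47% of all genes were called higher and 5.72% lower. Of 12 measured zinc transporters 1 rose and 3 fell, with a median change of 0.01, and 2 of the 4 are the Mtf1 targets above. Only 1 of the 12 had both means above the bound. The others, Slc30a7, which moves zinc into the Golgi, and Slc30a9, a mitochondrial zinc transporter, fell by 0.34 and 0.35 (limma adjusted p = 0.0339 and 0.0247). Both calls were lost without any 1 array other than control replicate 3, at adjusted p of 0.0703 to 0.113 for Slc30a7 and 0.0579 to 0.0827 for Slc30a9. Quantile normalization also ended the call of Slc30a7 (limma adjusted p = 0.0744). Of 5 genes for cadmium entry and efflux 2 were measured, Slc39a8 and Slc40a1, with changes of 0.17 and 0.12 that did not pass. Of 4 measured copper handling genes 0 passed as deposited, with a median change of -0.10, and the copper exporter Atp7a had the largest difference, -0.29 (limma adjusted p = 0.0631). Of 4 measured genes of the glutathione and thioredoxin systems, which exchange thiols with metallothionein, Gclc and Gsr rose. Gsr, glutathione reductase, rose from 5.09 ± 0.04 to 5.46 ± 0.05 (limma adjusted p = 0.0053), below the bound in both groups. Txn1, thioredoxin, had a change of 0.46 ± 0.13 (SE) that did not pass (limma adjusted p = 0.0612).

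**Figure D5:**
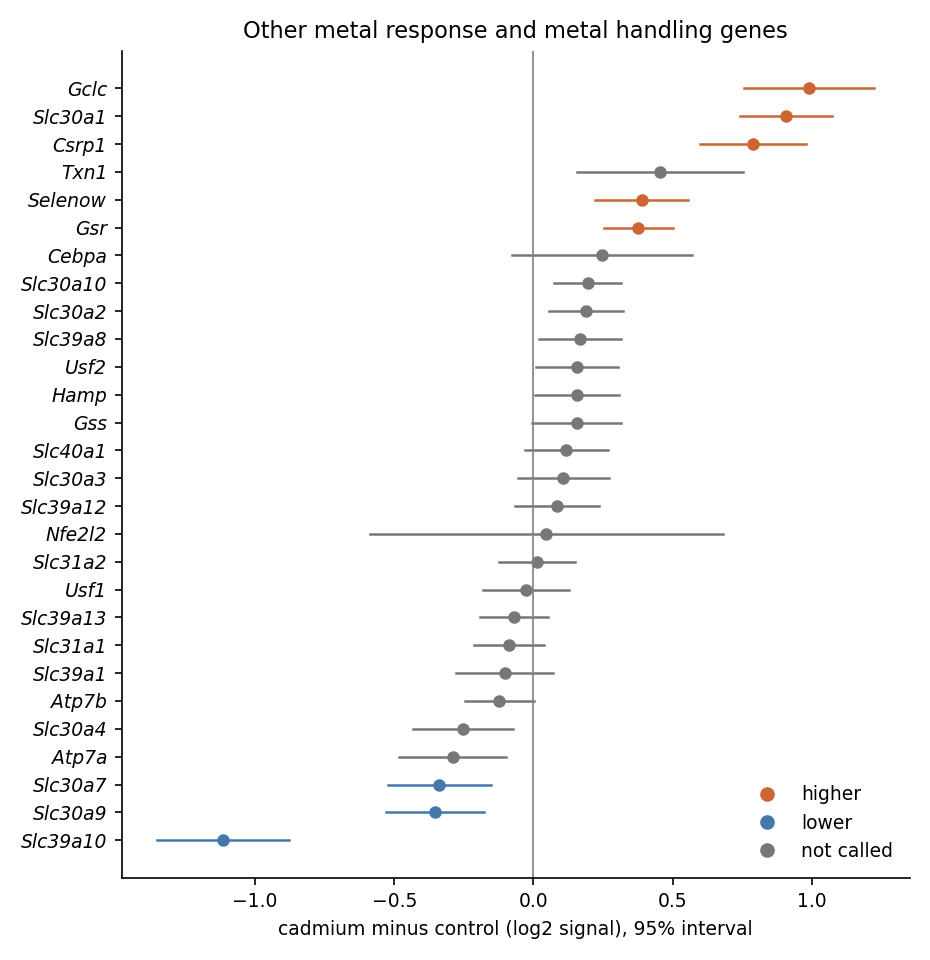
Change with 95% interval (cadmium minus control, log2 signal) of the measured genes of the metal response and metal handling lists, ordered by change. Orange points were called higher, blue points lower and grey points neither, and Gclc at 0.99 and Slc39a10 at -1.11 mark the ends.

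Likeness of pattern was measured as the distance over the 6 arrays between values centred on the control mean, among 6695 named genes at or above the median level. All genes share the same arrays, so the distances are a description. The distance takes in the size of the change, so near genes are mostly those with a change of like size. Nearest to Mt2 were Hmox1, haem oxygenase, at a distance of 0.46, Hspb1, a small heat shock protein, at 0.68, and Akr1b8, an aldo-keto reductase, at 0.77. Hmox1 rose from 5.41 ± 0.26 to 7.58 ± 0.26 (SD, n = 3), at least 2.62-fold. Hspb1 and Akr1b8 had changes of 2.01 and 1.82, and both means of Akr1b8 lay below the bound. Nearest to Mt1 were Hhat at 0.23, Plekhb2 at 0.24 and the zinc exporter Slc30a1 at 0.24. Nearest to Mt4 were Ptprn at 0.26, Tubb3 at 0.29 and Pea15a at 0.32, and nearest to Mt3 were Heyl, Hcn3 and Cdc42se1 at 0.06 to 0.07.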

How the data were processed

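Per the labels, biotin-labelled total RNA from NIT-1 cells was read on 6 arrays, 3 per group. The authors deposited a table of log2 values, 1 for each transcript cluster on each array, from 0.45 to 13.10. The log2 scale is inferred from that range, and a fold holds only if the base is 2. Which normalization, software and probe build were used was not given in the sources used here. Of 39746 clusters, 19205 had 1 gene in the platform annotation, 940 several and 19601 none, with old symbols updated through RefSeq of GRCm38.p6; the brightest cluster stood for each of 18972 genes. Genes were tested two-sided without further scaling in R 4.3.3 with limma 3.58.1, by eBayes after an lmFit model that held only the group. Single differences between genes used an exact permutation over arrays. The steps were tested on simulated data.

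The 5 genes, the lists and the markers were chosen with earlier results of these data known. Named genes are the 5 genes, from each list the 4 genes of lowest adjusted p, all genes behind a count of 5 or fewer, the 3 nearest in pattern to each called gene, without predicted genes, small RNAs, receptors of smell and pseudogenes, and marker genes; the chromosome 8 neighbours and the other list genes named were added after their values were seen. The lists held 66 entries, and those without a single-name cluster were not analysed here. Promoter sequences came from RefSeq, GRCm38.p6. Alternatives were array centring, quantile normalization, a filter at the median level, the mean of probes, a trended robust variance, array weights, a block for the replicate number, leaving out each array in turn, a threshold of 0.01 and a minimum change of 0.26. Same-numbered arrays of the 2 groups were checked for shared deviations. Figures were drawn with matplotlib 3.10.9.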

Additional observations from a re-analysis of the deposited data

How the results depend on the processing

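Mt1 and Mt2 kept their calls in all 15 alternatives each, and Mtf1 passed in none of 15, with changes of 0.02 to 0.08. Without 1 array the change ranged from 2.03 to 2.30 for Mt2, 0.81 to 0.97 for Mt1, 0.77 to 1.05 for Mt4 and 0.19 to 0.24 for Mt3, and quantile normalization gave 1.82 for Mt2. The call of Mt3 ended with arrays centred, at a change of 0.17, and at an unchanged 0.21 with the replicate block, the minimum change of 0.26 and the threshold of 0.01. The minimum change and the threshold of 0.01 also ended that of Mt4, at 0.92, and left 2 of the 5 genes called; without 1 array 2 to 3 were called. Over all genes 1142 to 2361 were called without 1 array, against 2313 with all, 428 with the minimum change and 868 at 0.01. Of all calls 53.0% were higher as deposited, 38.0% with arrays centred and 43.4% after quantile normalization.

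Same-numbered arrays of the 2 groups had deviations that correlated at -0.108, 0.057 and -0.108, and differently numbered arrays at -0.106 to 0.163. With 3 arrays a group such values cannot show whether same-numbered arrays shared a day or a passage. With the number as a block 1388 genes were called, 2 zinc transporters and neither Mt3 nor Slc30a7 nor Slc30a9. Without 1 array 2 to 4 zinc transporters were called, and 2 with the minimum change or at 0.01. Copper handling had 1 call, lower, with arrays centred, with array weights and with the filter at the median level, and 0 to 1 without 1 array. The glutathione and thioredoxin list had 1 call with the minimum change and 2 to 3 without 1 array. The change of Mt2 minus that of Mt1 was 1.16 to 1.45 without 1 array. Causes were not tested. With 3 arrays a group, and Mt3, Mt4 and Mtf1 below the background bound, the sizes of their changes are the least certain.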
